A study of Mus musculus with 9 samples.

Results

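Tumor cells of the 4T1 line were compared with tumor cells of the 4T07 line on Illumina mouse bead arrays, with 3 arrays for each line. These are 6 of the 9 arrays of the series and were taken by the line named in their titles. The other 3 arrays hold tumor cells of the 67NR line, which entered the fit for its estimate of the spread and are given as a further level beside the comparison. Neither line was treated, and both grew as primary mammary fat pad tumors in Ub-GFP hosts, female Balb/c animals marked by GFP in their own cells. An inoculum of 500000 cells was used per tumor, and tumors were taken at a mean diameter of 10 mm, reached after 2 to 4 weeks. Cells negative for GFP and for the leukocyte marker CD45 were sorted, and biotin-labeled RNA amplified from their total RNA was hybridized. The labels name no allele or agent that separates 4T1 from 4T07, and the sources used here do not state the age of the hosts. Each group is a single cell line, so that metastatic behavior and every other trait in which 4T1 differs from 4T07 cannot be told apart. Nothing says that the arrays of a line came from separate mice, and the p-values therefore measure only the spread between these arrays, which may be technical.

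Both lines descend from a spontaneous mammary carcinoma of a Balb/c mouse. 4T1 cells leave the mammary gland and form visible metastases in the lung and other organs, whereas 4T07 cells reach the lung and seldom form visible metastases there. Mammary carcinoma cells can hold or lose an epithelial program, in which keratin filaments, tight junctions and desmosomes bind neighboring cells to each other, and cells that lose it take on mesenchymal traits such as a fibrous matrix and greater motility. Tumor cells also differ in how strongly they run inducible programs, among them the interferon response, which arms cells against viruses, and the integrated stress response, which slows translation and raises amino acid synthesis.

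On the 4T1 arrays 17091 to 17566 probes were detected at a detection p-value under 0.05, against 16604 to 17282 on the 4T07 arrays. Over all genes the 4T1 arrays correlated with the 4T07 arrays at 0.930 to 0.942, with at least 0.988 among the 4T1 arrays and at least 0.985 among the 4T07 arrays. The tumor cell label was checked with markers of epithelium, fibroblasts, leukocytes, endothelium, muscle, fat and red cells. Of 9 measured epithelial markers, 7 passed the test as higher in 4T1 and 0 as lower, and their summed normalized intensity was 29419 to 36784 on the 4T1 arrays and 5039 to 7955 on the 4T07 arrays. Of 9 measured fibroblast and pericyte markers 1 was higher and 3 were lower in 4T1, with sums of 1096 to 1278 on the 4T1 arrays and 3007 to 4431 on the 4T07 arrays. Of 4 endothelial markers 1 was higher in 4T1 (Plvap, 1.02 ± 0.31, adjusted p = 0.0285). None of the 7 leukocyte, 2 erythroid and 1 adipocyte markers passed the test in either direction, and the leukocyte gene Ptprc and the epithelial gene Epcam have no named probe here. Of 3 skeletal muscle markers 2 were higher in 4T1, and the troponin Tnni2 carried most of that level, with 9.49, 10.18 and 9.62 on the 4T1 arrays against 7.60, 7.46 and 7.12 on the 4T07 arrays. In bulk RNA, fewer cells of a type and less RNA per cell cannot be told apart. The part of these marker differences in the results was not tested.

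4T1 cells differed from 4T07 cells across a large share of the transcriptome, in both directions. Of 10021 genes tested, 2985 (29.8%) passed an adjusted p-value of 0.05 by limma, of which 1400 (14.0% of all genes) were higher in 4T1 and 1585 (15.8%) were lower. With a log2 fold change of at least 1 as well, 471 genes were higher in 4T1 and 529 were lower. The levels of the 3 arrays of 4T1 and the 3 arrays of 4T07 did not overlap in 4501 genes (44.9%), so that a gene without overlap is common here. The median log2 fold change over all genes was -0.01, the 5th percentile was -1.04 and the 95th percentile was 0.95. Here and below, a level is a normalized log2 intensity, a log2 fold change is 4T1 minus 4T07, and errors are SE unless named otherwise. Levels near 4.5 lie at the background of the arrays, and levels are not compared between genes.

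**Figure D1:**
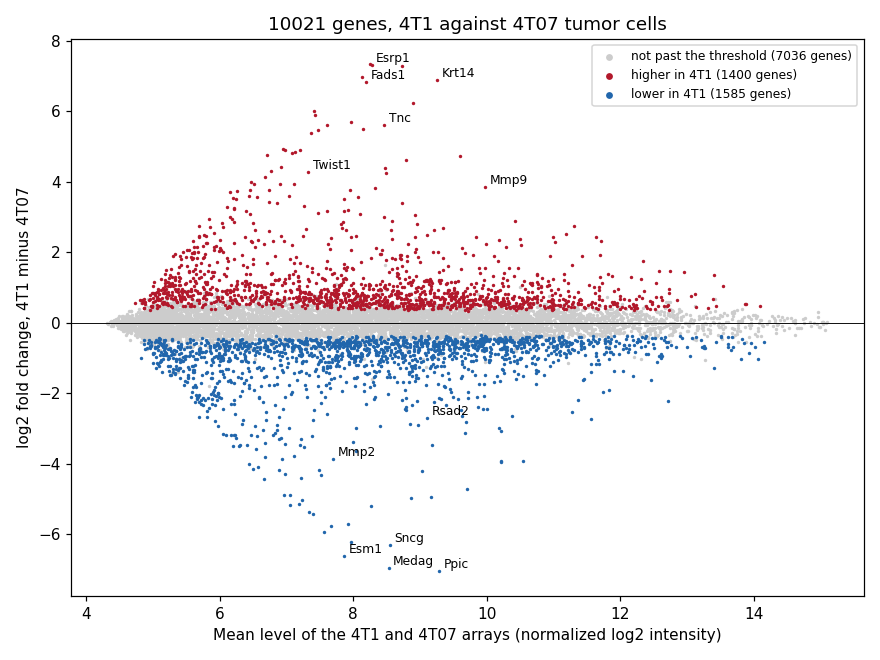
Each point is 1 of the 10021 genes tested, with its mean level over the 6 arrays of 4T1 and 4T07 on the horizontal axis (normalized log2 intensity) and its log2 fold change, 4T1 minus 4T07, on the vertical axis. The 1400 genes higher in 4T1 (red) and the 1585 genes lower in 4T1 (blue) spread over all levels. The largest changes lie near 7 on the log2 scale in both directions. Some of them belong to genes detected on no array of the lower line, such as Esrp1 and Esm1. The largest fall, Ppic, was detected on all 4T1 arrays.

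Several of the largest rises in 4T1 were genes of epithelial cells. Esrp1, an RNA-binding protein that directs epithelial splice forms, had levels of 11.70, 11.93 and 12.17 on the 4T1 arrays, against 4.59, 4.63 and 4.64 on the 4T07 arrays. It was detected on all 4T1 arrays and on no 4T07 array, so that its difference is a bound, at least 115.0-fold higher in 4T1 (adjusted p = 4.73e-11). Such bounds set the 4T1 mean against the lowest signal that counted as detected, since a level at background has no lower limit. The tight junction protein Cldn4 had 12.10, 12.35 and 12.68 on the 4T1 arrays, against 4.63, 5.33 and 5.31 on the 4T07 arrays (log2 fold change 7.29 ± 0.21, adjusted p = 6.30e-10). Its neighbor in function Cldn3 was at least 40.4-fold higher in 4T1 and Dsg2, a desmosomal cadherin, at least 39.3-fold, both with no detection on a 4T07 array. The other kept probes of Dsg2 gave 1.30 and 1.69 on the log2 scale, the same direction and a smaller size.

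Several of the 15 largest rises lay outside cell junctions. Moxd1, of a family of copper-dependent monooxygenases, had 11.92, 11.74 and 12.14 on the 4T1 arrays, against 4.58, 4.47 and 4.70 on the 4T07 arrays. On this probe it was at least 114.7-fold higher in 4T1, and its other kept probe gave 5.59 on the log2 scale, a smaller rise. Tnc, a matrix glycoprotein of wounds and tumor stroma, had 11.41, 10.84 and 11.58 on the 4T1 arrays, against 5.40, 5.93 and 5.62 on the 4T07 arrays (5.62 ± 0.33, adjusted p = 2.30e-07), though 1 of its other probes gave only 0.64. The potassium channel Kcnk1 rose by 5.62 ± 0.18 on the log2 scale (4.22 on its other kept probe) and Grb7, an adaptor of receptor tyrosine kinases, by 5.49 ± 0.35. Fermt1, which activates integrins at the membrane of epithelial cells, rose by 5.69 ± 0.36. Scarf2, a scavenger receptor-like protein, the membrane protein Tmem185b and Fads1, the delta-5 desaturase of polyunsaturated fatty acids, were detected on all 67NR arrays as well as on all 4T1 arrays and are taken up below.

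The largest falls in 4T1 were close in size to the largest rises. Ppic, a peptidyl-prolyl isomerase of the cyclophilin family, had 6.40, 5.50 and 5.40 on the 4T1 arrays, against 12.78, 12.72 and 12.91 on the 4T07 arrays. It fell by 7.04 ± 0.38 on the log2 scale (adjusted p = 1.33e-07 by limma), and its other kept probe gave -5.25. Medag, a gene tied to fat cell formation, had 5.01, 5.02 and 5.08 on the 4T1 arrays, against 12.34, 11.91 and 11.81 on the 4T07 arrays, and its second probe gave the same fall, -7.10. Esm1, the secreted proteoglycan endocan, had 4.62, 4.50 and 4.53 on the 4T1 arrays, against 11.10, 11.20 and 11.27 on the 4T07 arrays. It was detected on no 4T1 array and was at least 70.3-fold lower in 4T1.

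Other falls of that size were shared by genes of several kinds. Sncg (gamma-synuclein) fell by 6.32 ± 0.15, Ecrg4, a secreted peptide precursor, by 6.22 ± 0.35 and Inmt, a methyltransferase of small amines, by 5.76 ± 0.61 on the log2 scale. The other kept probes of Sncg (-4.15) and Inmt (-3.88) fell less. Tnfrsf11b, the secreted decoy receptor osteoprotegerin, was detected on no 4T1 array and was at least 25.9-fold lower there, and Bglap2, an osteocalcin gene, at least 31.6-fold. Bglap2 has a near-identical copy, Bglap, which fell as well, and the probes may not separate them. Hsd11b1, which regenerates active glucocorticoid, had 6.89, 5.79 and 6.45 on the 4T1 arrays, against 12.07, 10.99 and 11.02 on the 4T07 arrays (-4.98 ± 0.34). In each of these genes the highest 4T1 array lay below the lowest 4T07 array.

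**Figure D2:**
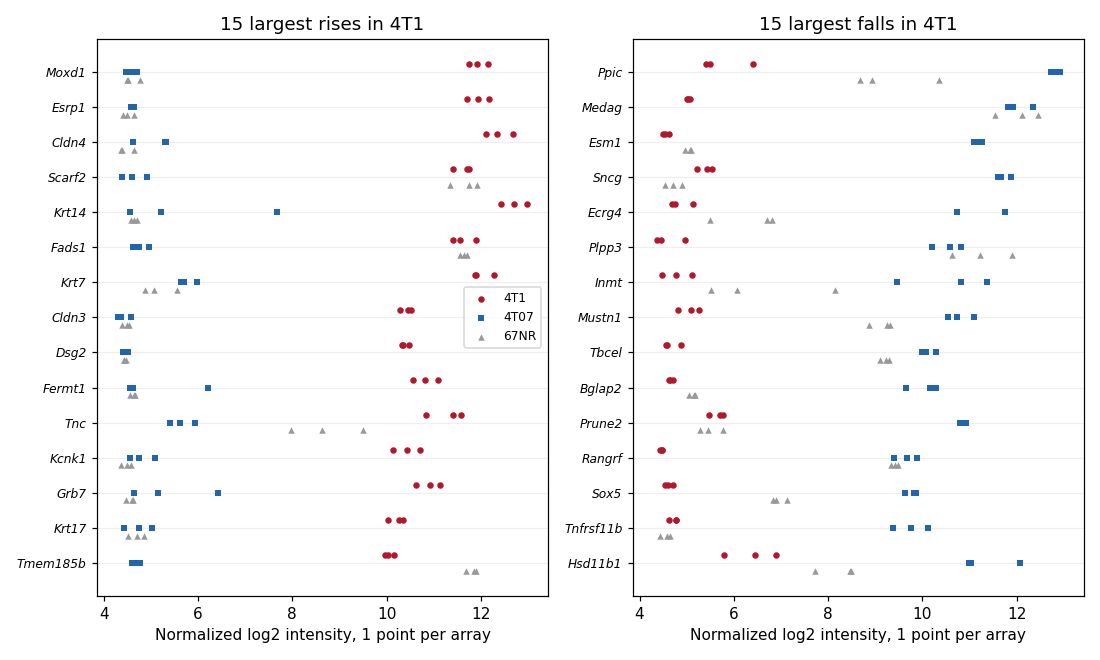
Normalized log2 intensity on every array (1 point per array) for the 15 largest rises (left) and the 15 largest falls (right) in 4T1, with 4T1 in red circles, 4T07 in blue squares and 67NR in gray triangles. The 4T1 and 4T07 points of each gene lie apart because genes with overlap were not taken. Krt14 (4.56, 5.22 and 7.67), Fermt1 and Grb7 show 1 of the 4T07 arrays, array 3, nearer to 4T1 than the others.

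The epithelial lists moved one way. Of 8 measured keratins 6 were higher in 4T1 and 0 lower, with a median log2 fold change of 3.07, and of 22 measured junction and adhesion genes 15 were higher and 0 lower, with a median of 1.27. With genes at background in 4T07 set to their bounds these medians were 2.68 and 1.23, beside a median of -0.01 and 14.0% called higher over all genes. Krt14, a keratin of basal cells, had 12.70, 12.42 and 12.98 on the 4T1 arrays, against 4.56, 5.22 and 7.67 on the 4T07 arrays (6.89 ± 0.58, adjusted p = 5.36e-06). Krt7, of simple epithelia, rose by 6.24 ± 0.19 and Krt17, of basal and stressed epithelium, was at least 34.8-fold higher. The luminal pair was present in both lines: Krt8 had 13.59, 13.59 and 13.81 on the 4T1 arrays, against 11.90, 12.23 and 12.53 on the 4T07 arrays, and Krt18 rose by 2.44 on the log2 scale.

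Among the junction genes the classical adherens junction cadherin Cdh1 had 9.87, 10.08 and 9.95 on the 4T1 arrays, against 6.82, 7.20 and 6.90 on the 4T07 arrays, a rise of 2.99 on the log2 scale with detection in both lines. St14, the membrane protease matriptase, rose by 3.60 and its inhibitor Spint1 by 2.88. Rises were smaller in Ocln (1.16), the desmosomal plaque genes Pkp2 (1.09) and Pkp3 (0.57), and Prss8 (0.65), another membrane-bound protease. Of the remaining 7 junction genes none passed the test. Among mammary lineage factors Grhl2, a transcription factor that sustains epithelial junction genes, had 8.18, 8.58 and 8.67 on the 4T1 arrays, against 4.52, 4.46 and 4.43 on the 4T07 arrays, and was at least 10.5-fold higher in 4T1. Other lineage factors went the other way, with Klf4 at -2.39 ± 0.28, Foxa1 at -1.55 ± 0.25 and Sox9 at -1.30. In all, 5 of 14 measured lineage factors and receptors (35.7%) were higher in 4T1 and 4 (28.6%) were lower. Over all genes these shares were 14.0% and 15.8%.

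The 4T07 arrays were not alike in these genes. Over the 21 keratin and junction genes called higher in 4T1, the median level was 9.87, 10.08 and 9.95 on the 4T1 arrays, and 4.86, 5.29 and 5.55 on the 4T07 arrays 1, 2 and 3. Array 3 was the highest 4T07 array in 10 of the 21 genes, array 2 in 9 and array 1 in 2. In Krt14 array 3 stood at 7.67, against 4.56 and 5.22 on the other 4T07 arrays. Outside these lists Lamb3, a chain of the basement membrane laminin, had 4.97, 6.19 and 8.27 on the 4T07 arrays, and Anxa8 had 5.32, 6.06 and 7.87. Without 4T07 replicate 3 the same lists gave 6 keratins and 16 junction genes higher in 4T1 and 0 lower, and without 4T07 replicate 1 they gave 6 and 12. The direction of every call in the epithelial lists was thus the same with each 4T07 array left out.

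Genes tied to epithelial-mesenchymal transition did not move as a group. Of 18 measured, 5 were higher in 4T1 and 5 were lower (27.8% each), with a median of 0.00. Over all genes 14.0% were higher and 15.8% lower. Without 4T07 replicate 1 or without 4T1 replicate 3 the lower count of this list was 3. Twist1, a transcription factor known to drive that transition, had 9.41, 9.65 and 9.33 on the 4T1 arrays, against 5.32, 5.58 and 4.69 on the 4T07 arrays (4.27 ± 0.24, adjusted p = 1.79e-07). It was thus higher in the line that held more Cdh1, and Foxc2, another driver in experimental models, was at least 2.59-fold higher in 4T1. Snai1 and Zeb2, which repress Cdh1, were lower in 4T1 by 0.73 and 0.67 on the log2 scale, and Zeb1 was at -0.23 without passing the test. Fibronectin (Fn1) rose by 1.35 ± 0.12, with other kept probes from 0.29 to 2.28, whereas Sparc fell by 1.17. Vimentin (Vim) had 13.71, 13.75 and 13.68 on the 4T1 arrays, against 13.48, 13.50 and 13.50 on the 4T07 arrays, a difference of 0.22 that did not pass.

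Of 26 measured collagen and matrix genes 9 (34.6%) were higher in 4T1 and 2 lower, beside 14.0% and 15.8% over all genes. Those that rose held the laminin chain Lamb3 (4.63 ± 0.59), fibulin-2 (Fbln2, 2.29 ± 0.24), Col7a1 of anchoring fibrils (2.20 ± 0.27) and the type IV chains Col4a1 (0.90) and Col4a2 (0.88). The 2 that fell were the small proteoglycan Dcn, with 8.31, 8.24 and 8.14 on the 4T1 arrays against 11.11, 10.18 and 9.95 on the 4T07 arrays, and Col6a1 (-0.72). Of 14 integrin subunits 7 were higher in 4T1, among them the collagen-binding chain Itga1 (2.18 ± 0.18) and Itgb6 (2.03 ± 0.30), a chain of epithelial cells that activates TGF-beta. Itgb7, a chain known from lymphocytes, went the other way, with 4.66, 5.56 and 5.97 on the 4T1 arrays against 9.13, 9.47 and 10.16 on the 4T07 arrays (-4.19 ± 0.32).

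The gelatinases differed in opposite directions. Mmp9 had 12.03, 11.44 and 12.25 on the 4T1 arrays, against 7.35, 8.49 and 8.34 on the 4T07 arrays (3.84 ± 0.31, adjusted p = 3.74e-06). Mmp2, which cuts the same denatured collagens, had 6.19, 5.32 and 5.79 on the 4T1 arrays, against 10.19, 9.57 and 9.15 on the 4T07 arrays (-3.87 ± 0.27, adjusted p = 1.06e-06). The collagenase Mmp13 rose by 2.35 ± 0.34, and the matrix-bound inhibitor Timp3 was at least 4.01-fold lower in 4T1. Of the 21 proteases and inhibitors 5 (23.8%) were higher in 4T1 and 6 (28.6%) lower, beside 14.0% and 15.8% over all genes. The list as a whole thus had no common direction.

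Interferon-stimulated genes were lower in 4T1. Of 32 measured, 17 were lower and 1 was higher, with a median log2 fold change of -0.66, beside 15.8% called lower over all genes. The best known element through which interferon acts on such genes is the interferon-stimulated response element, searched here on both strands as a pair of GAAA blocks with any 2 bases between them. To show it in members that fell together, the stretches of RefSeq promoter (GRCm38.p6) that hold it are printed for Rsad2, Ifit3, Isg15 and Cxcl10, each on the strand of the gene and upstream of its start, with the matches in capitals (a match on the opposite strand reads as TTTC blocks).
Rsad2 (chr12:26456543-26456592, minus strand): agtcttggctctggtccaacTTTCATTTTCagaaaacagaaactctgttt
Ifit3 (chr19:34583353-34583436, plus strand): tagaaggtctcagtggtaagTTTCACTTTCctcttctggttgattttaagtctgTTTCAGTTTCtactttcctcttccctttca
Isg15 (chr4:156200855-156200916, minus strand): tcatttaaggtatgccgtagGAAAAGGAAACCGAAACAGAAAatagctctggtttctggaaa
Cxcl10 (chr5:92349073-92349122, minus strand): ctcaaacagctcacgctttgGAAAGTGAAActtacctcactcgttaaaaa
The run in Isg15 holds 3 overlapping matches and Ifit3 holds 2 separate ones. Of the 32 measured members 24 matched a promoter in the table, and 10 of these held the letters within the 250 bases before a start. They were found in 7 of the 12 matched members that fell and in 3 of the 12 other matched members. Counted by gene in the same way, 3.40% of the 8124 tested genes with a promoter held them. Counted by promoter, they were in 2.98% of all 32851 promoters of that length. A match is a description of the sequence and not a site of binding.

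The members ran from antiviral effectors to the factors that switch them on. Rsad2 (viperin), which stops viral replication, had 8.30, 7.63 and 7.33 on the 4T1 arrays, against 10.62, 10.42 and 10.36 on the 4T07 arrays (-2.71 ± 0.22, adjusted p = 3.22e-06). Ifit3, which binds viral RNA complexes, had 9.15, 8.36 and 8.65 on the 4T1 arrays, against 11.55, 11.15 and 10.84 on the 4T07 arrays (-2.46 ± 0.25). The ubiquitin-like modifier Isg15 had 9.77, 9.04 and 9.26 on the 4T1 arrays, against 11.06, 11.14 and 10.89 on the 4T07 arrays, a fall of 1.67 on the log2 scale. No 4T1 array reached the lowest 4T07 array in any of these. Of the regulators, Irf7 fell by 1.52, Stat2 by 0.72 and Irf9 by 0.68 on the log2 scale, and Usp18, which holds the response in check, fell by 1.42.

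The chemokine targets of interferon did not move together. Cxcl9, which draws T cells and is induced by interferon gamma, had 10.91, 10.50 and 10.55 on the 4T1 arrays, against 8.76, 8.46 and 8.84 on the 4T07 arrays (1.97 ± 0.50, adjusted p = 0.0119). Cxcl10, which shares its receptor, fell by 1.51 on the log2 scale, and this rests much on 1 array, since it had 10.15, 10.15 and 7.91 on the 4T1 arrays against 10.85, 10.96 and 10.91 on the 4T07 arrays. In 67NR, the third line, Rsad2 averaged 4.58 and Cxcl9 5.61, below both other lines. Of 17 measured genes of class I antigen presentation 2 (11.8%) were lower in 4T1 and 0 higher, with a median of -0.20, beside 15.8% lower over all genes. Of 7 measured class II genes 1 (14.3%) was lower, H2-DMa (-0.89 ± 0.14).

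**Figure D3:**
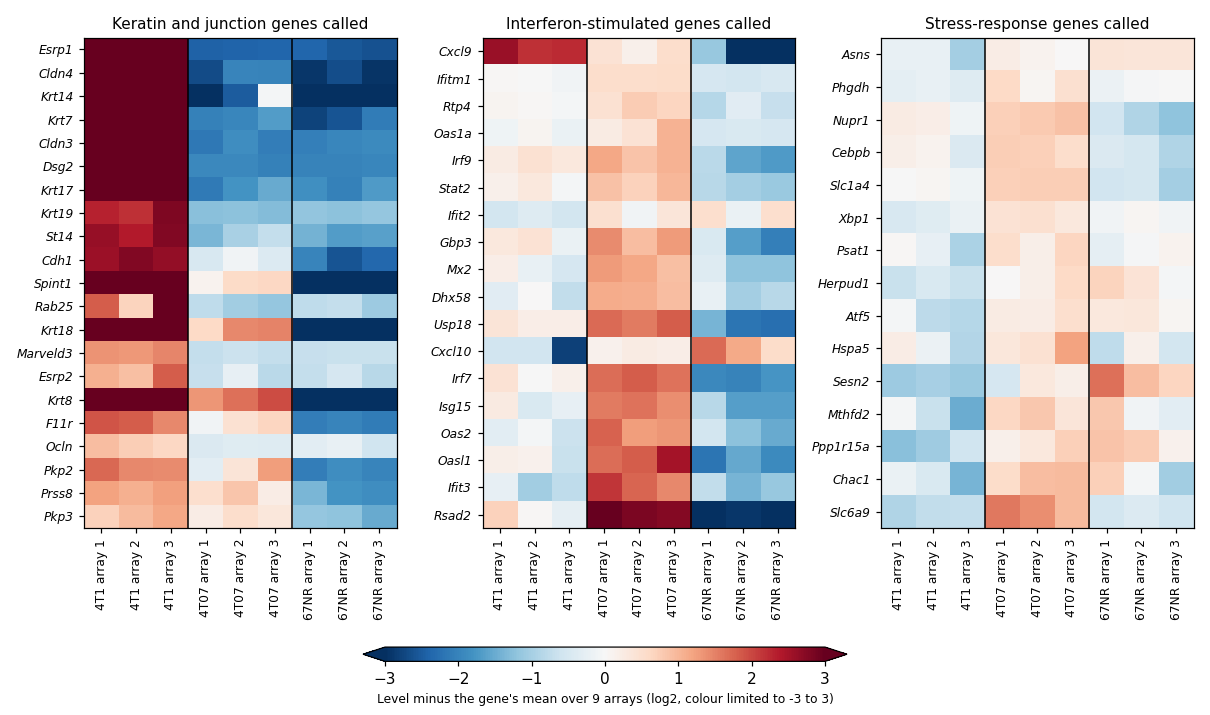
Level minus the gene's mean over the 9 arrays (log2, color limited to -3 to 3) on each array, with the 4T1, 4T07 and 67NR arrays in columns, for the 21 keratin and junction genes, the 18 interferon-stimulated genes and the 15 stress-response genes that passed the test. The keratin and junction genes are red on all 4T1 arrays, the interferon-stimulated genes other than Cxcl9 average highest in 4T07 or, for Cxcl10 and Ifit2, in 67NR, and the stress-response genes have array medians of 10.24, 9.63 and 9.46 in 4T1, 10.92, 10.68 and 10.78 in 4T07 and 10.74, 10.47 and 10.18 in 67NR.

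Of 29 measured chemokines, cytokines and colony-stimulating factors 7 (24.1%) were lower in 4T1 and 2 (6.90%) were higher, beside 15.8% and 14.0% over all genes. Without 4T1 replicate 3 the counts were 7 and 4, and without 4T1 replicate 1 they were 9 and 2. Il11, a cytokine of the interleukin-6 family, had 8.28, 7.62 and 6.43 on the 4T1 arrays, against 9.53, 11.57 and 11.66 on the 4T07 arrays (-3.48 ± 0.63, adjusted p = 0.00175). Ccl7, which draws monocytes, fell by 3.00 ± 0.38 and Cxcl2, which draws neutrophils, by 2.75 ± 0.46. In Il11, Ccl7 and Cxcl2 array 3 was the lowest of the 4T1 arrays. Il33, an alarmin held in the nucleus, fell by 2.03 ± 0.21. The 2 that rose were Il23a (1.78) and the membrane-bound chemokine Cxcl16 (1.33).

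The integrated stress response and the amino acid synthesis it drives were lower in 4T1. Of 25 measured genes 15 were lower and 0 were higher, with a median of -0.69, beside 15.8% lower over all genes. Slc6a9, a glycine transporter, had 8.68, 8.85 and 8.87 on the 4T1 arrays, against 11.17, 10.98 and 10.54 on the 4T07 arrays (-2.10 ± 0.17, adjusted p = 3.25e-06). Chac1, which breaks down glutathione, fell by 1.48 ± 0.39, Ppp1r15a, which returns translation to normal, by 1.37 ± 0.23, and Mthfd2, of the mitochondrial folate pathway, by 1.33 ± 0.35. Without 4T1 replicate 3 the count of lower genes was 9, with 0 higher. The serine and asparagine enzymes fell less, with Psat1 at -0.82, Phgdh at -0.67 and Asns at -0.60.

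The factor ATF4 acts on many of these genes through the C/EBP-ATF response element, searched as TGATGNAA on both strands. It is shown in Chac1 and Herpud1, which fell, with the match in capitals (here on the opposite strand).
Chac1 (chr2:119351029-119351076, plus strand): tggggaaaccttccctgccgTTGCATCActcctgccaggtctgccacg
Herpud1 (chr8:94386297-94386344, plus strand): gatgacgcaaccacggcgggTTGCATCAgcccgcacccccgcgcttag
Within 250 bases before a start the letters were present in 4 of the 15 members that fell and in 1 of the 8 other members matched. They were in 2.35% of tested genes with a promoter, counted by gene, and in 3.45% of all promoters of that length. The levels of the 15 genes that fell varied with the array: their median was 10.24, 9.63 and 9.46 on the 4T1 arrays 1, 2 and 3, and 10.92, 10.68 and 10.78 on the 4T07 arrays. Chac1 had 9.56, 9.30 and 8.37 on the 4T1 arrays, against 10.31, 10.67 and 10.71 on the 4T07 arrays, and without 4T1 replicate 3 its fall was 1.13 on the log2 scale and did not pass (adjusted p = 0.0610 by limma). Mthfd2 was similar, at -0.95 (adjusted p = 0.0515 by limma) without that array and at -1.23 (adjusted p = 0.0538 by limma) without 4T07 replicate 2.

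Growth factor and morphogen genes changed member by member. The platelet-derived growth factors Pdgfb (3.05 ± 0.28) and Pdgfc (2.62 ± 0.21) were higher in 4T1, and the receptor Pdgfra was lower, with 9.02, 8.99 and 9.04 on the 4T1 arrays against 10.96, 10.56 and 10.73 on the 4T07 arrays, although its second probe gave -0.14. The other receptor, Pdgfrb, passed as higher in 4T1 (0.55 ± 0.16, adjusted p = 0.0234) at levels near background, with detection on 1 4T1 array and no 4T07 array. Of the insulin-like growth factor binding proteins, Igfbp6 was at least 10.4-fold lower in 4T1 and Igfbp7 rose by 2.75 ± 0.24. Of 22 measured genes of the TGF-beta and BMP pathway 9 (40.9%) were higher in 4T1 and 2 (9.09%) lower, with a median of 0.36. Over all genes these shares were 14.0% and 15.8%. Pathway genes that rose held the ligands Inhba (1.62 ± 0.35) and Bmp7 (1.83 ± 0.24) and the latent binding protein Ltbp1 (1.50). The co-receptor Tgfbr3 rose by 2.08 ± 0.18, with 1.13 on its other kept probe, while the activin antagonist follistatin (Fst) fell by 2.20 ± 0.22.

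Of 19 measured Wnt pathway genes 3 were higher in 4T1 and 3 lower (15.8% each), near the shares over all genes. Wnt7a had 8.29, 7.71 and 7.98 on the 4T1 arrays, against 4.50, 4.52 and 4.47 on the 4T07 arrays, and was at least 7.48-fold higher in 4T1. Wnt6 had 4.78, 5.17 and 4.98 on the 4T1 arrays, against 7.92, 7.67 and 7.59 on the 4T07 arrays (-2.75 ± 0.15), although 1 of its other probes gave -0.33. Porcn, the acyltransferase that makes Wnt ligands fit for secretion, rose by 1.55 ± 0.17. In the Notch pathway the receptors Notch4 (-1.78 ± 0.31) and Notch1 (-0.76 ± 0.24) and the target Hey1 (-1.20 ± 0.20) fell, whereas the feedback regulator Nrarp rose by 1.73 ± 0.17. The call of Notch1 was lost under median centring (adjusted p = 0.0563) and without 4T07 replicate 1 (0.131), 4T07 replicate 3 (0.0591), 4T1 replicate 2 (0.0633) or 4T1 replicate 3 (0.126). Of 18 angiogenic factors 3 (16.7%) were higher in 4T1 and 5 (27.8%) lower, beside 14.0% and 15.8% over all genes. Those that fell held Angpt2 (-2.22 ± 0.15), which loosens vessel walls, and Vegfd, which was at least 3.06-fold lower. Leaving out 4T07 replicate 3 gave 6 angiogenic factors higher, and leaving out 4T07 replicate 1 gave 3 lower.

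For the metabolic lists, the shares over all genes to set beside them were 14.0% higher and 15.8% lower in 4T1. Of 67 measured subunits of oxidative phosphorylation 9 (13.4%) were higher in 4T1 and 7 (10.4%) lower, with a median of 0.04. Of 17 core glycolytic genes 3 (17.6%) were higher and 2 (11.8%) lower, so that neither list stood far from those shares. These counts were unsteady: without 4T07 replicate 2 they were 3 and 3 for the subunits, and 0 glycolytic genes passed as higher without any 1 of 4 arrays (4T07 replicates 1 and 2, 4T1 replicates 1 and 2). Eno2, the neuronal enolase, fell by 1.27 ± 0.23, and Gapdh was at -0.07 ± 0.13 without passing the test. Hypoxia-induced genes were higher where they differed, 7 of 20 (35.0%) with 0 lower. Among them were adrenomedullin (Adm), at least 3.62-fold higher, and the carbonic anhydrases Car12 (1.54 ± 0.27) and Car9 (1.14 ± 0.17). Ndrg1 (1.23 ± 0.36) was another, and its call was lost without 4T07 replicate 1 or any 1 of the 4T1 arrays. The hypoxia count was 4 without 4T1 replicate 2. With the deposited log2 values 7 hypoxia genes were higher and 2 lower. Of 17 cholesterol genes 8 (47.1%) were lower in 4T1 and 1 (5.88%) higher, with a median of -0.23. Those that fell held Sqle (-0.76 ± 0.16), Insig1 (-0.93 ± 0.14), Stard4 (-0.78 ± 0.17) and the regulator Srebf2 (-0.64), and the exception was the isomerase Ebp (1.15 ± 0.19). The other kept probes of Insig1 ran from -1.30 to 0.54 on the log2 scale, so that its direction was not the same on every probe. Without 4T1 replicate 2, 3 of the 17 passed as lower, and without 4T1 replicate 3, 5 did.

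Genes of fatty acid handling split between the steps. Fads1 had 11.90, 11.55 and 11.41 on the 4T1 arrays, against 4.62, 4.76 and 4.97 on the 4T07 arrays, and was at least 92.4-fold higher in 4T1 on its single probe. Fads2, the delta-6 desaturase that works just before it, had 6.58, 5.63 and 6.27 on the 4T1 arrays, against 5.93, 5.86 and 5.86 on the 4T07 arrays, a difference of 0.28 ± 0.21 that did not pass (adjusted p = 0.358). Scd1, which makes monounsaturated fatty acids, averaged 8.40 ± 0.35 in 4T1 and 10.15 ± 0.07 in 4T07 (SD, n = 3 each), with every 4T1 array below every 4T07 array (-1.75 ± 0.18, adjusted p = 2.83e-05). Fads1 and Scd1 thus differed in opposite directions. The elongases Elovl5 and Elovl6 fell by 0.87 ± 0.14 and 0.86 ± 0.15 on the log2 scale.

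Acsl6, an acyl-CoA synthetase known from brain, had 9.06, 8.95 and 9.26 on the 4T1 arrays, against 4.32, 4.33 and 4.36 on the 4T07 arrays, on none of which it was detected, whereas Acsl4, which activates arachidonic acid, was at -0.25 ± 0.22 and did not pass. Of 11 fatty acid synthesis genes 2 (18.2%) were higher in 4T1 and 1 (9.09%) was lower, beside 14.0% and 15.8% over all genes. Acacb (at least 1.64-fold) and Mecr (0.42 ± 0.14) were higher, and Acss2 was lower (-0.87 ± 0.15). The calls of Acacb and Mecr were each lost when single arrays were left out, among them 4T07 replicate 2. Fasn was at 0.26 ± 0.16 without passing. Its levels lay near background, with detection on 2 4T1 arrays and 1 4T07 array, so that its probe can hardly show a difference. Acly, which makes cytosolic acetyl-CoA, was at 0.36 ± 0.15 without passing (adjusted p = 0.0940 by limma). Acly passed with no background correction (0.0424) and on the deposited log2 values (0.0355). Of the genes of triglyceride storage the lipid droplet coat Plin2 rose by 1.01 ± 0.19 and the seipin gene Bscl2 by 1.72 ± 0.16, while the acyltransferase Dgat2 fell by 0.99 ± 0.21 and Dgat1 was at -0.10 ± 0.18. Of 23 ferroptosis control genes 3 were higher in 4T1 and 3 lower, with 1 lower without 4T07 replicate 1 or without 4T1 replicate 3. The iron exporter Slc40a1 had 7.98, 8.20 and 8.37 on the 4T1 arrays, against 6.17, 6.06 and 5.73 on the 4T07 arrays (2.20 ± 0.18). Gpx4, which reduces lipid peroxides, was at -0.02 ± 0.13, and Slc7a11, the cystine transporter, at -0.26 ± 0.25. Among glutathione genes Gsto1 rose by 2.31 ± 0.13 and Gstt1 was at least 7.13-fold lower, and in Gstm1 (-1.76 ± 0.18) another probe gave 0.00.

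Of 33 measured mitotic genes 11 (33.3%) were lower in 4T1 and 0 were higher, with a median of -0.44, beside 15.8% lower over all genes. Aurka, a kinase of the spindle poles, had 8.87, 8.33 and 8.28 on the 4T1 arrays, against 9.94, 9.72 and 9.70 on the 4T07 arrays (-1.29 ± 0.18, adjusted p = 2.83e-04). Aurkb fell by 0.83 ± 0.19 and Espl1, which frees sister chromatids, by 0.97 ± 0.22. Of these 11, Aurka, Cdc25b and Tpx2 lie on the stretch of chromosome 2 described below, and 8 lie elsewhere. The count moved with single arrays, to 5 without 4T1 replicate 2 or without 4T07 replicate 1 and to 6 without 4T1 replicate 3, which is close to the share over all genes. Of 41 replication genes 3 were higher and 6 (14.6%) lower, near the share over all genes, with 3 lower without 4T1 replicate 2. In the p53 axis the CDK inhibitor Cdkn1a fell by 1.50 ± 0.30, and Sfn, the epithelial protein that holds cells before mitosis, had 8.22, 7.94 and 7.83 on the 4T1 arrays, against 5.14, 4.97 and 4.60 on the 4T07 arrays (3.09 ± 0.17).

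**Figure D4:**
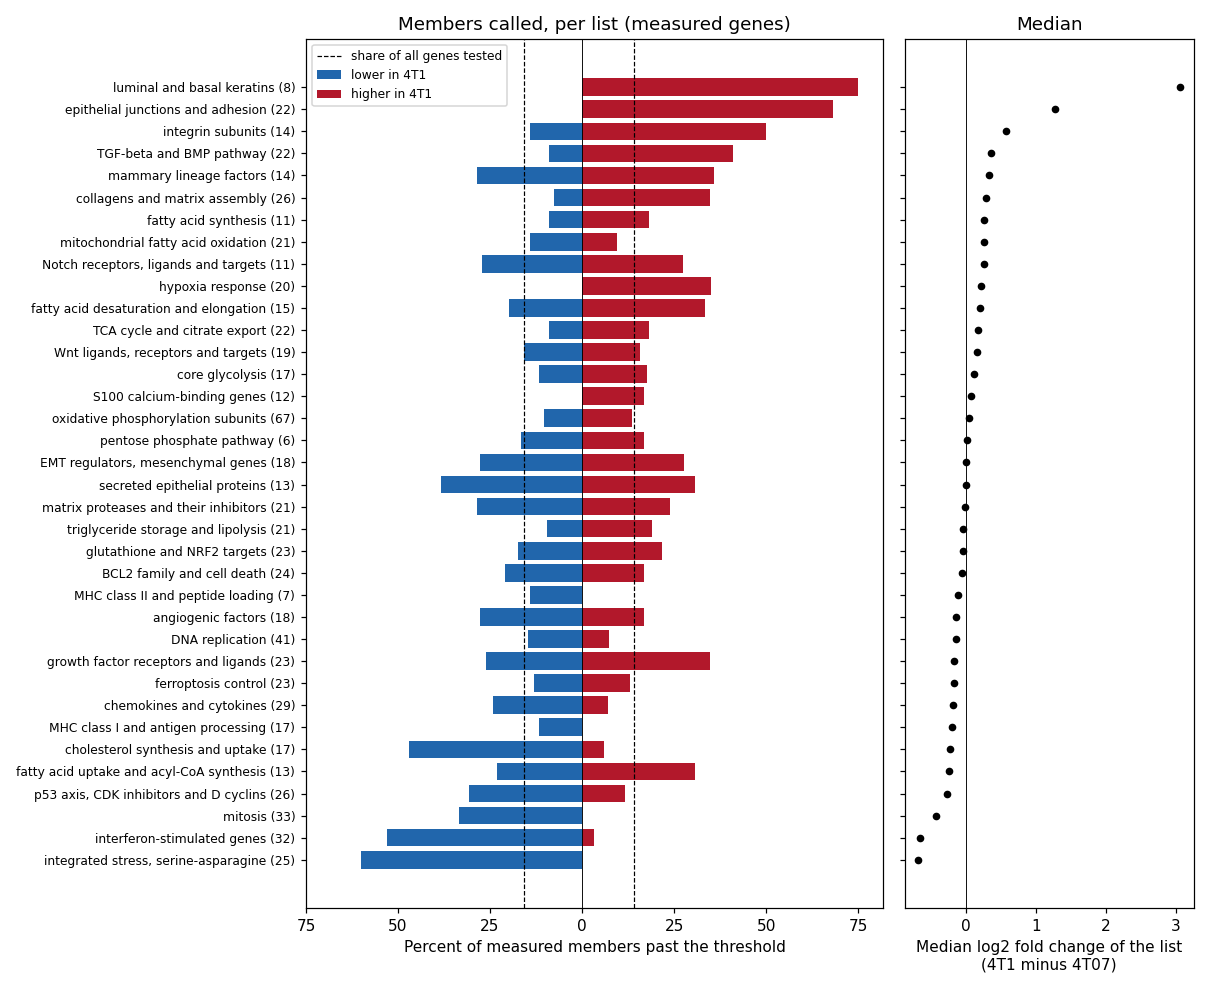
For each of the 36 gene lists, the percent of measured members (number in parentheses) that passed the test as lower (blue, to the left) or higher (red, to the right) in 4T1, with dashed lines at the share of all genes tested (15.8% and 14.0%), and on the right the median log2 fold change of the list. Keratins (median 3.07) and junction genes (1.27) stand at one end and the integrated stress (-0.69), interferon-stimulated (-0.66) and mitotic (-0.44) genes at the other.

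Some genes were present in one line and at background in the other. Of the genes higher in 4T1, 169 were detected on no 4T07 array, and of those lower in 4T1, 152 were detected on no 4T1 array. These were sorted by 67NR into genes detected only in 4T1 or only in 4T07 and genes undetected only in 4T1 or only in 4T07. Detected on all 4T1 arrays and on no array of the other lines were 104 genes, among them Krt17, Cldn3, the tricellular junction gene Lsr and the epithelial kinase Ripk4. Detected on all 4T07 arrays and on no array of the others were 56 genes, among them Esm1, Tnfrsf11b, the enzyme of itaconate synthesis Acod1 (at least 14.2-fold lower in 4T1), the pentraxin Ptx3 (at least 11.9-fold) and the Hedgehog pathway factor Gli2 (at least 7.51-fold). Lsr, Ripk4, Acod1, Ptx3 and Gli2 were chosen after their values were seen.

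Genes undetected in 1 line, but detected on all arrays of both others, were 31 for 4T07 and 60 for 4T1. They ran from differences of several log2 units to small ones near the detection floor, such as Slain1, at least 1.15-fold higher in 4T1, and Clec3b, at least 1.21-fold lower, both chosen after their values were seen. Among the largest, Scarf2 had 11.40, 11.70 and 11.75 on the 4T1 arrays, against 4.93, 4.60 and 4.38 on the 4T07 arrays, and averaged 11.67 in 67NR. Tmem185b averaged 10.06 in 4T1 and 4.67 in 4T07, with 11.81 in 67NR, and Fads1 averaged 11.62 in 4T1 and 4.78 in 4T07, with 11.63 in 67NR. In the other direction Tbcel, a tubulin-binding protein, averaged 4.68 in 4T1 and 10.12 in 4T07, with 9.21 in 67NR. Rangrf, which binds the GTPase Ran, averaged 4.46 in 4T1 and 9.66 in 4T07, with 9.41 in 67NR. These 5 genes are each read by 1 kept probe. Plpp3, a phosphatase of lysophosphatidic acid, belongs to the same class, but its second probe gave -1.34 in place of -5.94.

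Most tested genes next to them in gene order did not share the difference. The genes on either side of Fads1, Fads2 and Fen1, were at 0.28 and -0.35, those beside Scarf2, Klhl22 and Car15, at -0.31 and 0.02, and those beside Tmem185b, Ralb and Epb41l5, at 0.08 and -0.26, none of them past the test. Beside Tbcel, Sc5d and Arhgef12 were at -0.06 and -0.02. Beside Rangrf, Arhgef15 fell by 1.12 on the log2 scale and Pfas was at 0.13. At the second position out, Fads3 near Fads1 (0.52), Tmem177 near Tmem185b (0.73) and Oaf near Tbcel (-1.29) passed in the same direction, at smaller sizes. Dgcr2 near Scarf2 (-0.40), Gli2 near Tmem185b (-3.51) and Rpl26 near Rangrf (0.48) passed in the opposite direction.

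The place of 67NR differed between the directions. Of the 471 genes at least 1 higher in 4T1 on the log2 scale, 67NR lay within 1 of 4T07 only in 207 (43.9%) and within 1 of 4T1 only in 66 (14.0%). Of the 529 genes at least 1 lower in 4T1, it lay within 1 of 4T07 only in 141 (26.7%) and of 4T1 only in 174 (32.9%). In 132 and 122 of them 67NR lay outside both and over 1 from each, and in 55 and 77 it lay within 1 of both. In 11 and 15 it lay between the lines and over 1 from each. Only genes with a larger difference could enter that last class, so its count cannot show how often 67NR was intermediate. Twist1 is an example of a rise in which 67NR (10.05) sat near 4T1, as is Mmp9 of a value between them (10.45). Mmp2 at 10.12 in 67NR sat near 4T07. These are descriptions with no test.

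The difference also had a pattern along the chromosomes. Genes of chromosome 2 leaned toward lower levels in 4T1, with 53 higher and 260 lower of 793 tested and a median of -0.22. Chromosomes 7 (50 higher and 172 lower of 754, median -0.19) and 6 (41 and 133 of 491, -0.18) leaned lower as well. Chromosome 8 leaned the other way, with 127 higher and 29 lower of 534 and a median of 0.19, as did chromosome 12 (81 and 26 of 334, 0.15). In windows of 50 tested genes in gene order, 5 of 191 had a median at least 0.5 from 0, all of them lower in 4T1 and all next to each other on chromosome 2, from Sirpa to Pmepa1. Taken from Sirpa to the end of chromosome 2, 293 genes were tested, of which 176 (60.1%) were lower in 4T1, 14 were higher and 253 had a negative log2 fold change, with a median of -0.62. On the rest of chromosome 2, 84 of 500 genes were lower and the median was -0.10. Positions come from the RefSeq table of GRCm38.p6 and give only the order of genes, and the bounds of the stretch were chosen after the values were seen.

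Every array showed it. Relative to each gene's mean over the 9 arrays, the median of the 293 genes was -0.26, -0.28 and -0.24 on the 4T1 arrays and 0.37, 0.42 and 0.33 on the 4T07 arrays, with -0.14, -0.10 and -0.11 on the 67NR arrays. Set against 67NR, the median of the stretch was 0.47 in 4T07 and -0.12 in 4T1. On the rest of chromosome 2 these medians were -0.08 and -0.14, so that 4T07 was the line that stood apart on the stretch. The quartiles of the log2 fold change were -0.91 and -0.27 on the stretch, against -0.29 and 0.29 for genes off it. The spread on the stretch was thus about as wide as elsewhere, around a center shifted down by a modest amount. Larger falls stood out above this shift. Ctsa, the lysosomal protective protein, had 6.88, 6.85 and 7.05 on the 4T1 arrays, against 11.14, 11.17 and 11.12 on the 4T07 arrays (adjusted p = 5.07e-10), and its neighbor Pltp, which moves phospholipids between lipoproteins, fell by 3.28 on the log2 scale. Both lie in a run of 10 neighboring genes, from Dnttip1 to Zfp335, that were all lower in 4T1.

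Of 26 runs of at least 5 neighboring genes called in one direction, 12 lay on chromosome 2 and all 12 were lower in 4T1. They hold regulators named above or known from tumor cells, such as Snai1 (-0.73), the cell cycle factor E2f1 (-1.38) and Cebpb (-0.71). Against this shift stood genes of the stretch that were far higher in 4T1, among them Fermt1 (5.69), Mmp9 (3.84), Sdcbp2 (3.32), which binds syndecans, and the receptor Cd40 (3.24), the last pair chosen after their values were seen. Elsewhere the lowest window, from Atg9b to Gpn1 on chromosome 5, had a median of -0.49, and the highest, on chromosome 15, had 0.39. A run of 7 genes on chromosome 9, from Mtmr2 to Piwil4, was higher in 4T1, with a median of 1.27.

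**Figure D5:**
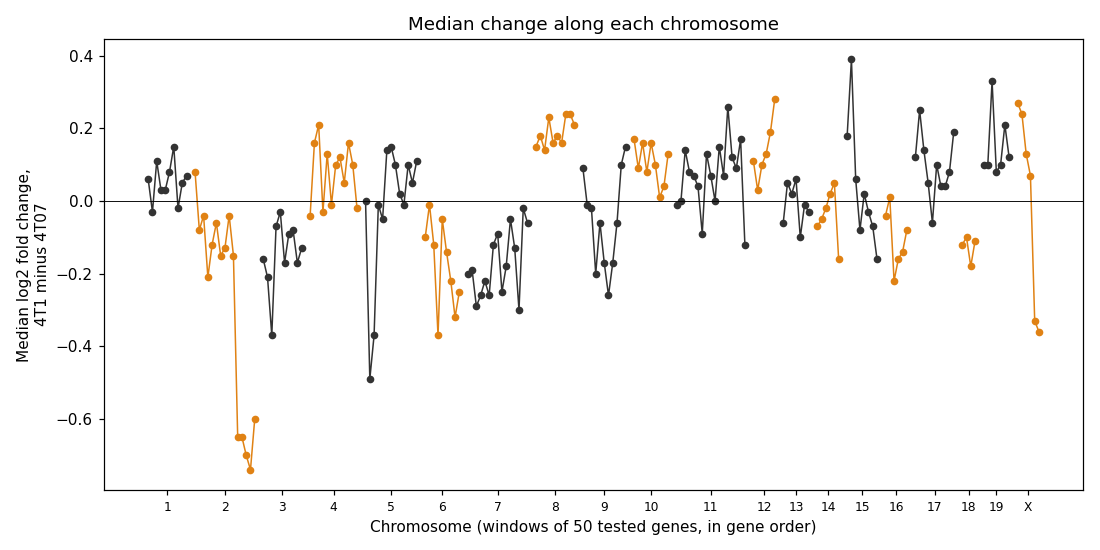
Median log2 fold change, 4T1 minus 4T07, of each window of 50 tested genes in gene order, for chromosomes 1 to 19 and X, with 1 point per window and chromosomes in alternating colors. The last 5 windows of chromosome 2 lie between -0.60 and -0.74, below all other windows, and all windows of chromosome 8 lie above 0.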

How the data were processed

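Total RNA of sorted tumor cells was hybridized to Illumina MouseWG-6 v2 bead arrays. The authors deposited probe intensity values without normalization, each with a detection p-value, and a table of normalized log2 values, which served as an alternative. The deposited detection p-values were used for the filter and for background correction. They also decided which genes counted as detected on an array. The bounds on fold differences, the sorting of genes by the lines that detected them and the choice of the largest rises and falls rest on this. Intensities were corrected and quantile normalized with neqc of limma 3.58.1 (offset 16) in R 4.3.3. Probes with a detection p-value under 0.05 on at least 3 of 9 arrays were kept, and each gene was read by its brightest kept probe with 1 symbol in GEO's platform annotation. All 9 arrays entered 1 linear model (lmFit, eBayes), and the contrast 4T1 minus 4T07 was adjusted by the Benjamini-Hochberg method over 10021 genes, with a threshold of 0.05. The fit was tested on simulated data with known changes.

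Genes named are the 15 largest rises and the 15 largest falls without overlap and detected on all arrays of the higher line, the genes the study measures or targets, the most changed members past the threshold in each list (at most 4), and runs of at least 5 neighboring genes. Further list members and neighbors are named for their function after their values were seen. The members and lists were chosen with earlier results of these data known. Alternatives were other background corrections, median centring, the deposited log2 values, other filters, the mean over probes, a fit of 6 arrays, the methods' t-test, each array left out, and a replicate block. No slide is given, so a slide block was not run. The number of arrays limits the precision. The number of columns of no known sample was 0.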

Additional observations from a re-analysis of the deposited data

Results flagged for a closer look

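A signal was seen among probes that entered no comparison of genes. Of 2766 kept probes without a gene name, 620 passed the threshold between 4T1 and 4T07 by limma with Benjamini-Hochberg adjustment, 356 of them higher and 264 lower in 4T1. No gene is assigned to them here.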

How the results depend on the processing

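Of 2985 genes past the threshold, 1400 were higher and 1585 lower in 4T1. Leaving out 1 array at a time gave 2217 to 2928 genes, with 1032 to 1356 higher and 1169 to 1572 lower. Median centring gave 2586 genes, 1307 higher and 1279 lower, so that 50.5% of the called genes were higher in place of 46.9%. The methods' t-test gave 3588 genes unadjusted and 1835 after Benjamini-Hochberg adjustment (844 higher, 991 lower), and a minimum log2 fold change of 1 gave 1000 (471 higher, 529 lower). The cause of the difference between the tests was not tested. Same-numbered arrays did not deviate together (correlations of -0.17, 0.00 and -0.11). With 3 arrays per line this cannot show whether the numbers pair the samples. With the replicate number as a block 2855 genes passed (1336 higher, 1519 lower). Of 163 named genes 153 passed, but most were named because they had passed, so this count is no support. Of the 153 genes, 106 passed under every alternative run, and 0 of the 163 reversed. A reversal was unlikely in genes chosen for large changes in these same data. A slide block was not run. With 3 arrays per line, and levels at background in many genes, small differences and the size of the largest ones are limited.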
